A study of Mus musculus with 6 samples.

Results

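The 10 genes described here lie on mouse chromosome 11 and encode CC chemokines, small secreted proteins that attract leukocytes. They are examined here in macrophages grown from 2 kinds of bone marrow monocyte. The rows of Ccl2, Ccl7, Ccl8, Ccl11, Ccl12, Ccl3, Ccl4, Ccl5, Ccl6 and Ccl9 were taken by symbol, 10 of 24411 genes listed in each library, and all 10 were found. The monocytes came from C57BL/6 mice and were sorted by flow cytometry into LFA1-low Itgam-low cells and LFA1-high Itgam-high cells. LFA1 is an adhesion receptor of leukocytes, and Itgam encodes the CD11b chain of another one. Both subsets were then grown alike for 7 days in RPMI with 10% serum and 20 ng/ml M-CSF, the macrophage growth factor, with fresh medium on day 4. They are called LFA1-lo and LFA1-hi macrophages after the sort, with 3 libraries each. Whether replicates came from different mice or cultures is not stated in the labels. The p-values therefore measure only spread among these samples, which may be technical.

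Chemokines bind receptors of the G protein-coupled class on the target cell, which then moves up the chemokine gradient. Ccl2, Ccl7 and Ccl12 are ligands of Ccr2, the receptor by which monocytes leave the bone marrow and enter inflamed tissue. Ccl8 and Ccl11 belong to the same group, and Ccl11, or eotaxin, draws eosinophils through Ccr3. Ccl3, Ccl4 and Ccl5 attract monocytes and lymphocytes, and Ccl6 and Ccl9 are rodent chemokines that act on Ccr1. Macrophages are a main source of most of them.

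The 10 genes lie in 2 blocks. On GRCm38 the monocyte chemoattractant group, in the order Ccl2, Ccl7, Ccl11, Ccl12 and Ccl8, spans chromosome 11 from 82035577 to 82116799 (81223 bases), with all 5 genes on the forward strand. The other block, in the order Ccl5, Ccl9, Ccl6, Ccl3 and Ccl4, spans 83525778 to 83664683 (138906 bases), and 1408978 bases separate the blocks. Ccl6 and Ccl9 have 4 exons in the GENCODE transcripts matched to the files, whereas the other 8 genes have 3. The longest run of identical bases between any of the transcripts was 25, in Ccl6 and Ccl9, and between Ccl2 and Ccl7 it was 23. The long noncoding gene E230016K23Rik runs across Ccl6 on the opposite strand but shares 0 exon bases with it.

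RefSeq windows of the 250 bases before the transcription start (GRCm38.p6) were matched for 5 of the 10 genes, namely Ccl12, Ccl8, Ccl3, Ccl6 and Ccl9. Those of Ccl12, which rose, of Ccl9, which fell, and of Ccl6, the neighbour of Ccl9, are shown 5′ to 3′ on each gene's own strand, at chr11:82101595-82101844 (forward), chr11:83578637-83578886 (reverse) and chr11:83593088-83593337 (reverse). Capitals mark matches, on either strand, to any of 6 motifs that were searched.
Ccl12: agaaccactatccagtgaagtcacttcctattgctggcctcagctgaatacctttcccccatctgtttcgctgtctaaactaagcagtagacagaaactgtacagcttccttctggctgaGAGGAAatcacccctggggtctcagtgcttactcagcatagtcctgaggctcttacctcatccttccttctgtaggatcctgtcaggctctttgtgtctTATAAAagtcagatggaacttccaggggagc
Ccl9: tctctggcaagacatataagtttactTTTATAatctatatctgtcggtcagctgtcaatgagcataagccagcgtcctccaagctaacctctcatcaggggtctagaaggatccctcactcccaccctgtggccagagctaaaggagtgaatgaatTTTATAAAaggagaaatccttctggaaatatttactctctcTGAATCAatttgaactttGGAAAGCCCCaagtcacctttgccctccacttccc
Ccl6: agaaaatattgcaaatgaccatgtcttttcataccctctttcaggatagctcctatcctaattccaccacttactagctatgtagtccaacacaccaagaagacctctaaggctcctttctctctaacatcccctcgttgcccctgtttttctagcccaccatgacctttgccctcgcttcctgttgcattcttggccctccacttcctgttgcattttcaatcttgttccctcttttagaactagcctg

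The motifs were TATAAA, the AP-1 site TGANTCA, the PU.1 core GAGGAA, the C/EBP half-palindrome TTGCNNAA, the interferon response sequence (GAAA, any 2 bases and GAAA) and the NF-kB consensus. In the Ccl12 window the capitals are a PU.1 core at −130 to −125 and a TATA box at −31 to −26, counted from the start site. Ccl8 also has a TATA box, at −32 to −27. The Ccl9 window holds TATAAA at −92 to −87, overlapping its reverse complement at −94 to −89, and once more on the reverse strand at −224 to −219. It also holds an AP-1 site at −53 to −47 and an NF-kB match at −35 to −26. The Ccl6 window holds no match to any of these letters. Among all 32851 RefSeq windows of this length 12.4% hold TATAAA, 6.75% the AP-1 site, 23.3% the PU.1 core, 9.56% the C/EBP sequence, 2.98% the interferon response sequence and 7.25% the NF-kB consensus.

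Summed expected counts, the number of reads or fragments that RSEM estimates for a gene, ran from 15191262 to 17614509 per library. All 10 macrophage markers examined were above 0 in all 6 libraries, among them Csf1r, the M-CSF receptor, at 642 to 1510.1 TPM (a level scaled to transcript length and to the library). Csf1r was lower in LFA1-hi macrophages (log2 fold change −1.02, SE 0.10, adjusted p = 0.000155). Of the 10 markers 6 fell and 1 rose, against 15.6% called lower and 16.1% called higher among all tested genes. Over the alternatives 4 to 7 of the markers fell and 0 or 1 rose. Of 11 listed markers of T and NK cells 8 were at 0 throughout, and of 12 stromal and endothelial markers 3 were. LFA1-lo replicate 2 stood apart: chi-square per degree of freedom between it and LFA1-lo replicates 1 and 3 was 34.6 and 49.0, against 13.9 between those 2 and 5.59 to 7.79 among LFA1-hi libraries. Values without it are given beside some of the results whose call, direction or size it changes, and other results may also depend on it. The ribosomal precursor Rn45s took 4.31% to 5.32% of the counts of LFA1-lo libraries and 5.73% to 5.98% of those of LFA1-hi libraries, and its part in the results was not tested. In these bulk samples, fewer cells of a type and less RNA per cell cannot be told apart.

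Ccl2, Ccl7 and Ccl12, 3 of the 5 monocyte chemoattractant genes, were higher in LFA1-hi macrophages, Ccl9 was lower, and Ccl3 and Ccl6 did not pass the test. With edgeR's quasi-likelihood test and a false discovery rate of 5% over all genes, 4 of the 7 chemokine genes that passed the filter on low counts rose (Ccl12, Ccl7, Ccl2 and Ccl4) and 1 fell (Ccl9). Of the 11692 genes tested in all, 31.7% were called, 16.1% as higher and 15.6% as lower in LFA1-hi. Ccl5, Ccl8 and Ccl11 were under the filter. The libraries of the groups did not overlap for the 5 called genes, which was so for 47.8% of all tested genes. Ccl12 passed the filter only through the LFA1-hi libraries, where it is high, so it could only enter the test as a gene that differs.

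**Figure D1:**
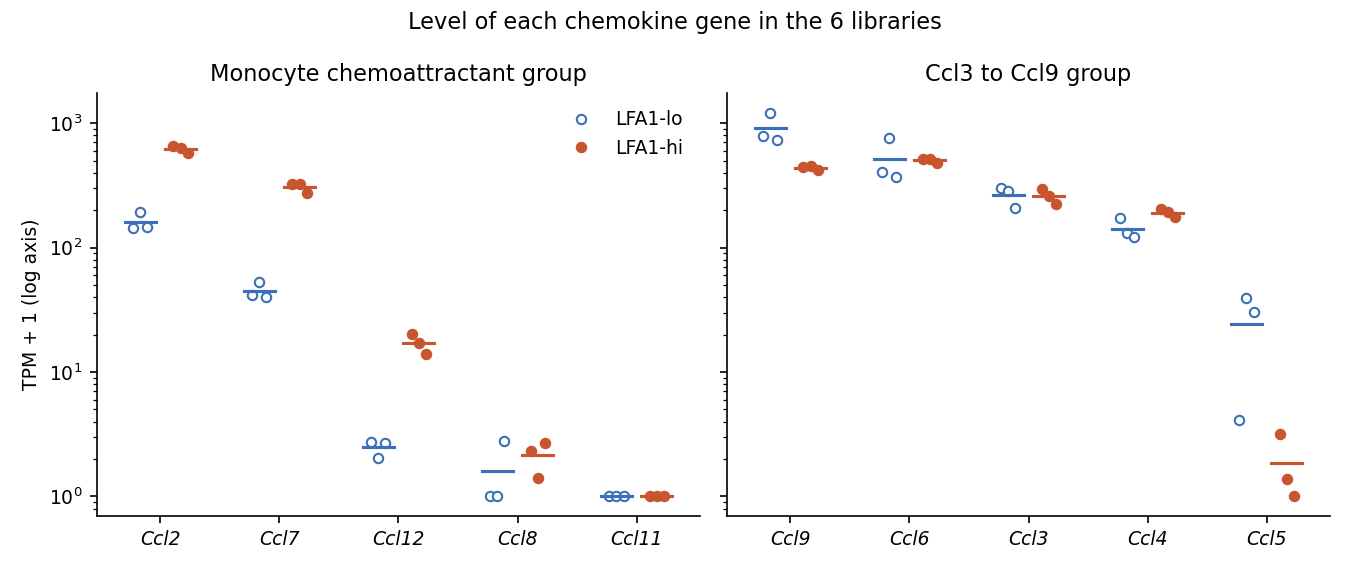
TPM + 1 of each of the 10 chemokine genes on a log axis, with a point per library and a bar at the group mean (3 LFA1-lo libraries as open points, 3 LFA1-hi libraries as filled points). Ccl2, Ccl7 and Ccl12 sit higher in every LFA1-hi library, Ccl9 sits lower, and Ccl11 is at 0 throughout.

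Ccl2, the main ligand of Ccr2 (chromosome 11, 82035577 to 82037452), stood at 144, 192 and 145 TPM in the LFA1-lo libraries (replicates 1, 2 and 3, the order kept throughout) and at 653, 626 and 569 TPM in the LFA1-hi libraries. Every LFA1-hi library lay above every LFA1-lo library, and LFA1-lo replicate 2 was the highest of its group. The means were 160.4 ± 27.6 and 616 ± 43.0 TPM (SD, n = 3 each), a 3.87-fold difference (95% interval 3.11 to 4.80; log2 fold change 1.95, SE 0.14, edgeR adjusted p = 3.05e-05). Among all 24411 genes ranked by TPM, Ccl2 moved from rank 734 to 972 in LFA1-lo libraries to rank 235 to 262 in LFA1-hi libraries.

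Ccl7, a ligand shared by Ccr2 and other receptors (82045712 to 82047525), had 40.7, 51.9 and 39.2 TPM in the LFA1-lo and 323, 325 and 271 TPM in the LFA1-hi libraries. The gap between the groups was wider than for Ccl2, and again no library crossed it. Ccl7 was at 44.0 ± 6.95 and 306 ± 30.6 TPM, 7.02-fold higher in LFA1-hi macrophages (95% interval 5.62 to 8.75; log2 fold change of 2.81, SE 0.14, edgeR adjusted p = 9.81e-06). Its rank among all genes went from 2648 to 3442 in LFA1-lo to 441 to 523 in LFA1-hi libraries.

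Ccl12, a mouse ligand of Ccr2 (82101845 to 82103399), was nearly silent in LFA1-lo macrophages, with expected counts of 5, 3 and 5. The LFA1-hi libraries had counts of 63, 44 and 42. In TPM these were 1.72, 1.04 and 1.67 against 19.2, 16.1 and 13.1, so that Ccl12 stayed far under Ccl2 and Ccl7 in both groups. The difference was 10.7-fold, with a wide 95% interval of 5.30 to 21.8 (log2 fold change 3.43, SE 0.45, edgeR adjusted p = 0.000611).

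The remaining genes of this block gave little or no signal. Ccl8 (82115185 to 82116799), which in the mouse acts mainly on Ccr8, had counts of 0, 0 and 5 in LFA1-lo and 4, 1 and 5 in LFA1-hi, and these overlapped. Ccl11 (82057832 to 82062955) had a count of 0 in all 6 libraries, which allows up to 0.170 to 0.197 CPM (counts scaled to the library total) per library, the value of 3 counts. The block thus held 3 genes that rose, 1 at the limit of detection and 1 not detected.

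Ccl9 (83572917 to 83578636) was the most abundant of the 10 chemokine genes in LFA1-lo macrophages, at 781, 1210.2 and 727 TPM, and had 443, 452 and 417 TPM in LFA1-hi. LFA1-lo replicate 2 was the highest of all, and the other 2 LFA1-lo libraries also exceeded each LFA1-hi library. Ccl9 was at 906 ± 265 and 437 ± 17.8 TPM, 2.05-fold lower in the latter (log2 fold change −1.04, 95% interval −1.49 to −0.59, SE 0.20, edgeR adjusted p = 0.00566). Without LFA1-lo replicate 2 the log2 fold change was −0.74 (SE 0.06). With 10828 to 30189 expected counts per library, Ccl9 was the most deeply covered of the 10 genes.

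Ccl6 (83587886 to 83593087), the neighbour of Ccl9, showed 406, 755 and 365 TPM in LFA1-lo and 518, 516 and 479 TPM in LFA1-hi. Its LFA1-hi libraries lay between LFA1-lo replicate 2 on the one side and replicates 1 and 3 on the other. With all libraries it did not pass the test (509 ± 214 and 504 ± 21.8 TPM; log2 fold change 0.00, 95% interval −0.66 to 0.65, edgeR adjusted p = 0.993). Without LFA1-lo replicate 2, Ccl6 was higher in the LFA1-hi group (log2 fold change of 0.43, SE 0.07, edgeR adjusted p = 0.000122, where alternatives reached 0.994). The call for Ccl6 thus rests on that library.

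Ccl3 (83647843 to 83649378), an attractant of monocytes and T cells, had 299, 284 and 207 TPM in LFA1-lo and 297, 260.1 and 223 TPM in LFA1-hi. The groups overlapped fully (263 ± 49.2 and 259.9 ± 37.1 TPM; log2 fold change 0.00, SE 0.16, edgeR adjusted p = 0.986). The 95% interval of −0.37 to 0.36 spans a level from 1.29-fold lower to 1.28-fold higher in LFA1-hi. Ccl4 (83662584 to 83664683 in GENCODE), an attractant of monocytes and lymphocytes, had 170.1, 131 and 121 TPM in LFA1-lo and 204, 192 and 174 TPM in LFA1-hi. Its groups met without overlapping, and the rise was small (141 ± 26.0 and 190.0 ± 15.1 TPM; 1.36-fold, 95% interval 1.11 to 1.68; log2 fold change 0.45, SE 0.13, edgeR adjusted p = 0.0293). Ccl4 lost its call without any single LFA1-hi library or without LFA1-lo replicate 3 (adjusted p = 0.0544 to 0.125, against a range over alternatives of 0.0116 to 0.125).

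Ccl5 (83525778 to 83530518), known also as RANTES and made by T cells, NK cells and stimulated macrophages, was the most uneven. The 3 LFA1-lo libraries had 9, 109 and 86 expected counts of it, and the 3 LFA1-hi libraries had 7, 1 and 0. LFA1-lo replicates 2 and 3 were high, while LFA1-lo replicate 1 was close to LFA1-hi replicate 1. The filter removed Ccl5 from the main test. Without a filter its log2 fold change was −4.68 (SE 1.26, edgeR adjusted p = 0.0402), and over 6 fits that could test it adjusted p ran from 0.00286 to 0.0686. In the fits that left out a library, Ccl5 passed the filter only through LFA1-lo replicates 2 and 3, where it is high. It could enter these fits only as a gene that differs. The lowest value came from leaving out LFA1-lo replicate 1, the library with 9 counts. Summed TPM of the 11 listed T and NK cell markers was at most 0.79 in any library, with Cd3d, Cd3e, Nkg7 and Prf1 at 0.

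**Figure D2:**
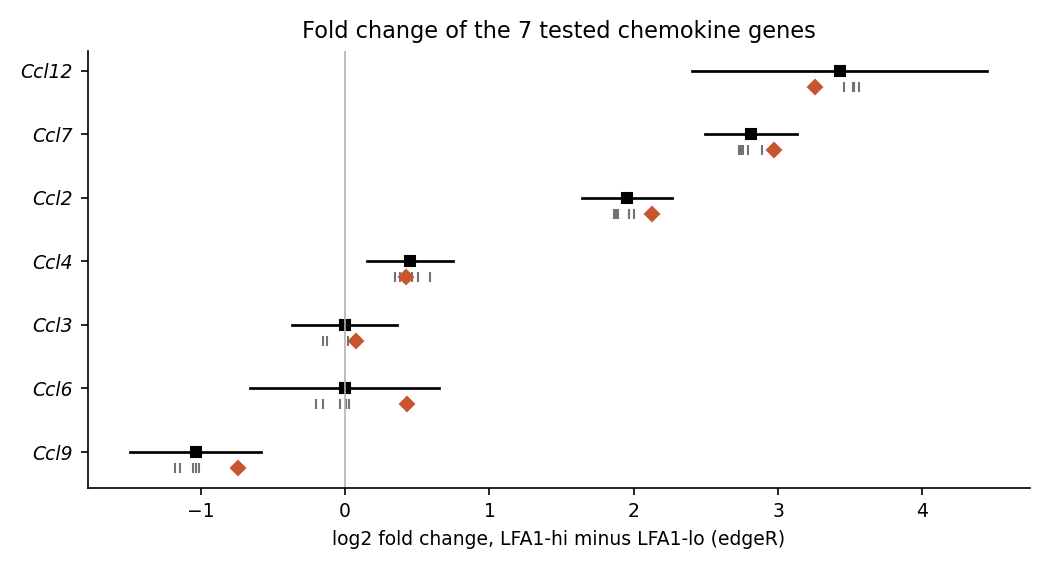
Log2 fold change of the 7 tested chemokine genes, LFA1-hi minus LFA1-lo, as squares with 95% intervals from edgeR. The marks under each square are the 6 fits that leave out a library, with a diamond for the fit without LFA1-lo replicate 2, which moves Ccl6 from 0.00 to 0.43 and Ccl9 from −1.04 to −0.74.

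The mixture of chemokine transcripts differed between the macrophages. The 5 monocyte chemoattractant genes together made up 10.1%, 9.21% and 11.5% of the summed TPM of all 10 genes in LFA1-lo libraries, and 40.5%, 40.5% and 39.8% in LFA1-hi libraries. Their summed level was 206 ± 33.7 TPM in LFA1-lo and 940 ± 75.1 TPM in LFA1-hi. The Ccl3 to Ccl9 group stood at 1842 ± 510 TPM in LFA1-lo and 1392 ± 88.6 TPM in LFA1-hi, and the sum over the 10 genes at 2048 ± 542 and 2332 ± 164 TPM. The total level of the 10 genes thus overlapped between the groups (1637 to 2663 and 2148 to 2461 TPM), while its composition did not. These sums are descriptions and were not tested. Counted by expected counts, which weigh long transcripts more, the share was 3.55% ± 0.436 in LFA1-lo and 20.8% ± 0.608 in LFA1-hi.

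The order of the levels per length changed accordingly. In LFA1-lo libraries Ccl9, Ccl6 and Ccl3 led, although the ranges of Ccl9 and Ccl6 overlapped and Ccl2 and Ccl4 changed places between libraries. In all 3 LFA1-hi libraries the order was Ccl2, Ccl6, Ccl9, Ccl7, Ccl3, Ccl4 and Ccl12, with overlapping ranges for Ccl7 and Ccl3. Ccl2 alone took 7.96% ± 0.842 of the summed TPM in LFA1-lo and 26.4% ± 0.183 in LFA1-hi. Ccl9 took 44.1% ± 1.58 and 18.8% ± 0.728.

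**Figure D3:**
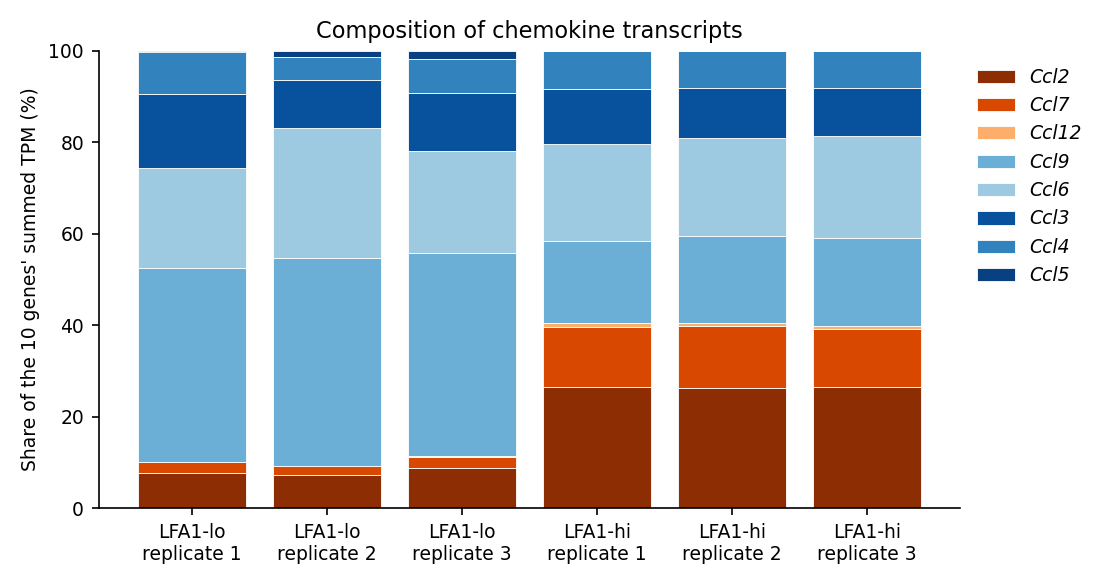
Share of the summed TPM of the 10 chemokine genes taken by each gene, as stacked bars for the 6 libraries (Ccl8 and Ccl11, together under 0.2%, are not drawn). The orange shades, the monocyte chemoattractants, fill about 10% of each LFA1-lo bar and 40% of each LFA1-hi bar.

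Neighbouring genes did not keep a fixed ratio. The TPM ratio of Ccl7 to Ccl2 was 0.284, 0.270 and 0.270 in LFA1-lo and 0.495, 0.519 and 0.476 in LFA1-hi. That of Ccl6 to Ccl9 was 0.520, 0.624 and 0.502 in LFA1-lo and 1.17, 1.14 and 1.15 in LFA1-hi, and this included LFA1-lo replicate 2, in which both genes were at their highest. That of Ccl4 to Ccl3 was 0.569, 0.460 and 0.585 in LFA1-lo and 0.686, 0.740 and 0.780 in LFA1-hi. No ratio overlapped between the groups, and each was higher in 3 of 3 LFA1-hi libraries. An exact two-sided permutation test gave p = 0.1 for each, the smallest that 3 against 3 libraries can give, and the same after Benjamini-Hochberg adjustment over the 6 ratios computed. The ratios were chosen after the values had been seen.

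**Figure D4:**
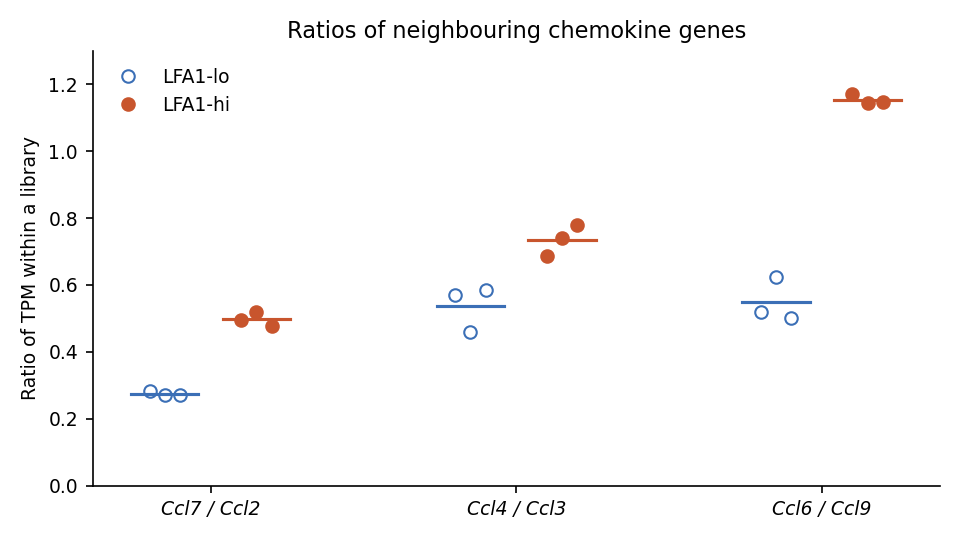
Ratio of TPM within each library for 3 pairs of chemokine genes, with a point per library and a bar at the group mean. The LFA1-hi ratios lie above the LFA1-lo ratios in each pair, and for Ccl6 to Ccl9 they go from about 0.55 to 1.15.

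The genes around the blocks were called about as often as all genes. The 12 tested neighbours, the 3 nearest tested coding genes on either side of each block, held 1 that rose and 2 that fell, a share near the 31.7% called among all genes. Cdk5r1, an activator of the kinase Cdk5 (0.97, SE 0.27, edgeR adjusted p = 0.0238), Myo1d, a myosin motor (−1.24, SE 0.30, adjusted p = 0.0129), and Rffl, a ubiquitin ligase (−0.84, SE 0.24, adjusted p = 0.0279), were these genes. All of them lie on the sides of the Ccl2 to Ccl8 block, at least 687020 bases away, and the 6 neighbours of the other block did not pass. Leaving out LFA1-lo replicate 2 raised the count to 6, leaving out LFA1-hi replicate 2 lowered it to 0 (edgeR), and it was 1 when either LFA1-hi replicate 1 or LFA1-lo replicate 3 was left out. The log2 fold change of Myo1d ran from −1.43 to −0.85 over the fits without a library.

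Among receptors of these chemokines, Ccr2 and Ccr3 fell. Ccr2, the receptor of Ccl2, Ccl7 and Ccl12, had 10.3, 22.0 and 18.3 TPM in LFA1-lo and 1.62, 1.87 and 1.28 TPM in LFA1-hi libraries. It fell where its ligands rose, and no library overlapped (log2 fold change −3.40, SE 0.31, edgeR adjusted p = 0.000169). Ccr3, a receptor of Ccl11 and Ccl5, fell from 9.43, 19.4 and 10.5 TPM to 5.15, 4.38 and 4.11 TPM (−1.51, SE 0.29, adjusted p = 0.00551). Its log2 fold change ran from −1.71 to −1.09 when a library was left out. Ccr1, the receptor of Ccl3, Ccl6 and Ccl9, had 20.5, 38.3 and 23.9 TPM against 9.64, 15.9 and 21.4 TPM and did not pass (−0.80, SE 0.34, adjusted p = 0.119; −0.46 without LFA1-lo replicate 2). The receptor-like gene Ccr1l1 reached at most 1.55 TPM, and Ccr8 was at 0 in all libraries. Of the 6 decoy and atypical receptors, 2 could be tested, and Ccrl2, which binds chemerin and presents it to other cells, fell (−0.74, SE 0.22, adjusted p = 0.029). Without LFA1-hi replicate 2 or 3 or LFA1-lo replicate 1 it did not pass (adjusted p = 0.0989 to 0.109, the latter the highest over alternatives).

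Some chemokine genes outside the 2 blocks were lower and others did not pass. Of 11 other CC chemokine genes 3 were tested and 2 fell, Ccl22, an attractant of regulatory T cells (4.40, 7.50 and 1.27 TPM in LFA1-lo, 0.06, 0.22 and 0.12 TPM in LFA1-hi; −4.98, SE 0.82, edgeR adjusted p = 0.002), and Ccl24, another eotaxin (−2.08, SE 0.47, adjusted p = 0.00913). Ccl1, which lies beside Ccl8 on chromosome 11, was at 0 in all libraries. Of 17 genes of the CXC, CX3C and XC classes 8 were tested, and 5 fell. Cxcl10, an interferon-induced attractant of T cells, went from 7.33, 31.7 and 16.7 TPM to 2.88, 0.53 and 2.01 TPM (−3.31, SE 0.68, adjusted p = 0.00821). When a library was left out its log2 fold change ran from −3.81 to −2.65. Cxcl2, an attractant of neutrophils, went from 35.3, 53.0 and 15.3 TPM to 7.78, 2.83 and 3.41 TPM (−2.85, SE 0.56, adjusted p = 0.00824). Cxcl16, a membrane-bound ligand of Cxcr6, fell by 1.43 on the log2 scale (adjusted p = 0.00198). Pf4, or platelet factor, stood at 1046 to 1466 TPM over the 6 libraries and did not pass (0.08, adjusted p = 0.607). Ccl22, Ccl24 and Cxcl10 passed the filter only through the LFA1-lo libraries, so like Ccl12 they could enter the test only as genes that differ, and the same holds for Cxcl1 and Ppbp, the other genes of the CXC list that fell beside Cxcl2 and Cxcl16. The counts of falling genes in these lists are therefore no evidence about the lists. Leaving out LFA1-hi replicate 3 ended the call of Ccl24 (adjusted p = 0.0505, in a range of 0.00212 to 0.0505 over alternatives).

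**Figure D5:**
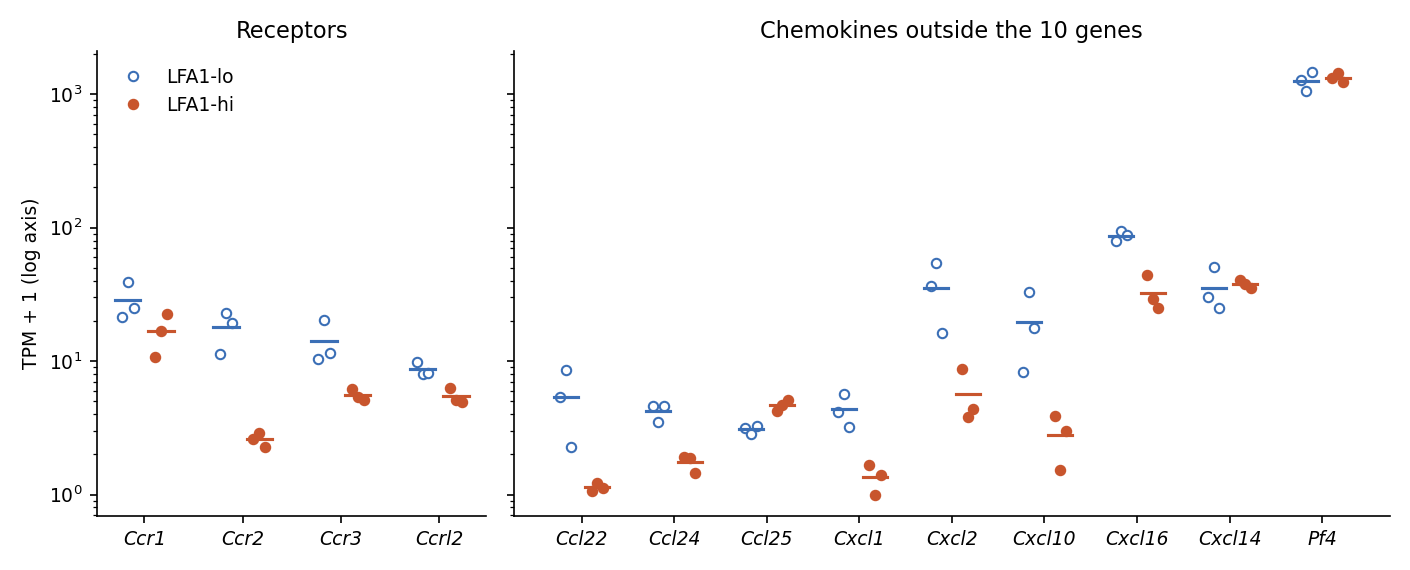
TPM + 1 on a log axis for receptors of the chemokines and the decoy receptor Ccrl2 (left) and for chemokine genes outside the 10 (right), with a point per library and a bar at the group mean. Ccr2, Ccr3, Ccl22, Cxcl2 and Cxcl10 sit lower in every LFA1-hi library.

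Of all tested genes 16.1% were called higher and 15.6% lower. Of 34 tested genes of chemokine receptor signalling 2 rose and 12 fell (median log2 fold change −0.21), which became 4 and 14 when LFA1-lo replicate 2 was left out, and 1 and 7 when LFA1-hi replicate 2 was. The falling genes were 8 when either LFA1-hi replicate 1 or 3 was left out. Pik3r5, a regulatory subunit of the phosphoinositide kinase that chemokine receptors activate, fell by 0.92 on the log2 scale (SE 0.08, edgeR adjusted p = 7.95e-05). Rgs10, which ends G protein signals, fell by 0.76 (adjusted p = 0.000661), Rgs2, of the same family, by 0.89 (adjusted p = 0.00287) and Plcb2, a phospholipase of this pathway, by 0.81 (adjusted p = 0.00289). The rising members were Grk6, a receptor kinase, and Elmo1, a partner of the Rac activator Dock2. Neither passed without LFA1-hi replicate 1 or 3. The inhibitory G protein gene Gnai2 stood at 705 to 829 TPM in LFA1-lo and 707 to 739.5 TPM in LFA1-hi and did not pass.

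Of 9 tested genes whose products cut or bind chemokines 1 rose and 4 fell, against 16.1% and 15.6% of all tested genes. Mmp9, a matrix protease, had 11.9, 92.9 and 10.0 TPM in LFA1-lo and 1.02, 0.20 and 0.46 TPM in LFA1-hi (−6.04, SE 1.49, edgeR adjusted p = 0.0384), and without LFA1-lo replicate 2 its log2 fold change was −4.19. It too passed the filter only through the LFA1-lo libraries. Its call was lost without LFA1-hi replicate 2 or 3, without LFA1-lo replicate 3, in limma voom and without a filter (adjusted p = 0.0514 to 0.133, the last being the highest over alternatives). Sdc1, a heparan sulfate proteoglycan (−1.57, adjusted p = 0.0183, and 0.0557 without LFA1-hi replicate 2 or 0.0689 without a filter, the highest over alternatives; −1.003 without LFA1-lo replicate 2), and Adam17, a sheddase (−0.71, adjusted p = 0.000163), also fell, and the sheddase gene Adam10 rose (0.57, adjusted p = 0.00344). Leaving out LFA1-lo replicate 2 gave 6 falling genes, and leaving out LFA1-hi replicate 2 gave 2. Mmp12, which cuts several CC chemokines, ran from 327 to 1103 TPM in LFA1-lo and 660.2 to 1066 TPM in LFA1-hi and did not pass.

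The 11 listed markers of neutrophils and their precursors summed to 184 to 316 TPM per LFA1-lo library and 106 to 120.3 TPM per LFA1-hi library. Of 6 tested 4 fell, against 15.6% of all tested genes. S100a9, Ltf and Ngp passed the filter only through LFA1-lo libraries, so this count is no evidence about the list. Csf3r, the other gene that fell, was also called under a filter of at least 10 CPM in 3 libraries. Of 8 listed markers of eosinophils, basophils and mast cells 2 were tested, and 1, Siglecf, rose, though not in all alternatives. Among all tested genes 16.1% were called higher. Without LFA1-lo replicate 1, Gata2 of the same list was called lower and Siglecf was not called. S100a9 was at 20.4, 66.2 and 80.3 TPM in LFA1-lo and 3.49, 2.30 and 3.88 TPM in LFA1-hi, so that LFA1-lo replicate 1 was the lowest of its group. Ccl5 was also lowest there, but the summed counts of the 11 markers (3249, 2183 and 3863 in LFA1-lo) were lowest in replicate 2. S100a9 thus does not stand for the list. The granule genes Elane, Mpo and Prtn3 were at or near 0, with at most 1.28 TPM. Their part in the values of Ccl5, Ccl6 and Ccl9 was not tested. The 8 dendritic cell markers summed to 22.5 to 107 TPM in LFA1-lo and 49.5 to 127 TPM in LFA1-hi, nearly all from Itgax, with Flt3 and Ccr7 at 0.

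The genes with the most similar course over the 6 libraries were found by the root mean square difference of log2 CPM, each gene centred on its mean, among 8324 other genes with a mean of at least 10 CPM. For Ccl2 these were Nup210, a nuclear pore gene (0.16), Mybl2, a cell cycle transcription factor (0.17), and Uhrf1, a DNA methylation cofactor (0.18). For Ccl7 they were Dach1, a transcriptional regulator (0.15), Id1, an inhibitor of helix-loop-helix factors (0.25), and Raet1d, a ligand of the receptor NKG2D (0.27). Ccl9 was nearest to Jarid2, a chromatin regulator (0.10), Zfp263, a zinc finger gene (0.10), and Rgs2 (0.11). Ccl6 was nearest to the chemokine gene Cxcl14 (0.08), which also peaked in LFA1-lo replicate 2 (29.4, 49.8 and 23.9 TPM in LFA1-lo, 39.5, 37.0 and 34.0 TPM in LFA1-hi), then to A630033H20Rik (0.08) and the amino acid transporter gene Slc1a5 (0.10). Without LFA1-lo replicate 2 these genes were called higher in LFA1-hi, Slc1a5 only just (edgeR adjusted p = 0.0496). Log2 fold changes were 0.51 in place of 0.11 for Cxcl14, 0.41 in place of 0.03 for A630033H20Rik and 0.25 in place of −0.11 for Slc1a5. All were picked for a course like that of Ccl6 over the same 6 libraries, so a shift like that of Ccl6 was fixed in advance. Ccl3 was nearest to Tfpt (0.04), Tmem11 (0.08) and Trmt10c (0.08), and Ccl4 to Aven (0.03), Gmds (0.07) and Ugcg (0.07). Between the chemokine genes themselves the difference was 0.26 for Ccl3 and Ccl4, 0.43 for Ccl2 and Ccl7, 0.55 for Ccl6 and Ccl9 and 1.90 for Ccl7 and Ccl9.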

How the data were processed

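Each of the 6 libraries came as 1 file of RSEM values for 24411 genes. Expected counts were deposited by the authors as estimated counts without normalization, and the deposited TPM and FPKM values were scaled by effective length, per the file headers. Per the submitters' processing notes, bcl2fastq, Trim Galore and RSEM were used with GRCm38. Not given in the sources used here are the aligner, tool versions and strand setting. Counts were rounded (5.53% to 6.06% of genes per library were not whole), filtered with filterByExpr, which left 11692 genes, scaled by TMM (factors 0.956 to 1.03) and tested two-sided in edgeR 4.0.16 (R 4.3.3, quasi-likelihood, robust). P-values were adjusted by Benjamini-Hochberg over the 11692 genes, with calls at 0.05. Standard errors and 95% intervals come from that fit. The procedure was also run on simulated counts with the same spread for all genes and no outlying library, which does not measure its error rate in these data.

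The genes and lists were chosen with earlier results of these data known. Named genes are the 10 chemokines, detected receptors (1 is not reported here), up to 4 called genes of at least 1 CPM with the largest changes in each list, called neighbours, and the 3 genes nearest in profile to each tested chemokine of at least 10 CPM. Others named (Ccr8, Ccl1, Pf4, Gnai2, Mmp12, Grk6, Elmo1 and the cell type markers) were chosen after their values were seen. Alternatives were other scalings, filters and tests (DESeq2 1.42.0, limma 3.58.1), unrounded counts, log2 of TPM + 0.1 or + 1, a replicate block and leaving out each library. The limits given for counts of 0 cover counting error only. Plots were made with Python 3.11.15 and matplotlib 3.10.9.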

Additional observations from a re-analysis of the deposited data

How the results depend on the processing

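Ccl2, Ccl7, Ccl12 and Ccl9 kept their direction and their call under all alternatives that could test them (18 each, 17 for Ccl12, which the filter of 10 CPM removed). Most alternatives share the filter that Ccl12 passed only through LFA1-hi libraries, so its kept call says less than those of the other genes. Without a filter Ccl12 was also called (edgeR adjusted p = 0.000192). Ccl4 kept its call in 14 of 18, and Ccl3 was called in none. The called genes among the 10 numbered 5, and 4 to 6 when a library was left out (3 to 5 higher, 1 or 2 lower). The falling genes were 2, with Ccl5 beside Ccl9, in DESeq2 and without a filter. Without LFA1-lo replicate 2, Ccl6 (0.43) and Slc1a5 (0.25) turned from a value below 0 to a call above it, and over the fits without a library they ran from −0.20 to 0.43 and from −0.27 to 0.25. Over all genes 3705 were called, and 2288 to 5032 when a library was left out (1169 to 2589 higher, 1099 to 2443 lower). Scaling by library totals gave 2294 higher and 1471 lower (60.9% higher, against 50.8%) and 5 called neighbours. Called neighbours numbered 3 of 12 tested, and 0 to 6 when a library was left out. In the pooled lists of receptors, other chemokines, signalling, and processing and binding genes, 30 of 60 tested were called, and 19 to 37 without a library. The share among all tested genes was 31.7%. Some genes of the pooled lists passed the filter only through LFA1-lo libraries, so their number is no evidence about the lists. The share of monocyte chemoattractants differed by 30.0 percentage points in TPM (29.5 to 30.6 without a library, an alternative chosen after seeing the data) and by 17.3 in expected counts. Under a replicate block 3253 genes were called and Ccl2, Ccl7, Ccl12, Ccl4 and Ccl9 kept their calls. With the block Ccr1 passed (−0.81, adjusted p = 0.0431, range over alternatives 0.0263 to 0.382) and Cdk5r1 did not (0.97, adjusted p = 0.0546). Ccr1 was also called lower in DESeq2. Deviations of same-numbered libraries had r of 0.04, 0.02 and −0.07 across genes, and not every library correlated best with its own number. With so few libraries, and LFA1-lo replicate 2 apart, this cannot show whether a number marks a shared animal or batch. Depth limits Ccl12, Ccl8, Ccl11 and Ccl5, with at most 109 counts in a library.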
